A study of Mus musculus with 44 samples.

Results

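The contacts made by the promoter of Mreg in mouse liver and kidney were compared over 6070 restriction fragments within 2000 kb on either side of a bait at chr1:72212660 (GRCm38). The comparison took in 4 of the 44 samples of the study and 4 of its 20 4C-seq libraries, 2 from liver and 2 from kidney, and every fragment with a value in both tissues was kept. The other samples were 4C-seq libraries of 4 further baits and 24 kidney RNA libraries. All 4 libraries came from wild-type C57BL/6 mice aged 8 to 12 weeks, fed ad libitum and sampled at zeitgeber time 20 (ZT20, hours after lights on). Tissue of single animals was fixed in 1.5% formaldehyde for 10 min, and the libraries carried the codes EF and GH in both tissues. The study asked which parts of circadian gene control differ between organs, and the Mreg libraries bear on how chromatin around 1 promoter is arranged in either organ.

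4C-seq joins DNA ends that lie close together in fixed nuclei, then sequences what was joined to a chosen bait, so the signal at a fragment rises with how often it lies near the bait. Contact falls steeply with distance from any bait, and departures from that fall mark parts of the chromosome held near it more or less often. Mreg encodes melanoregulin, a protein first known for its part in moving pigment organelles and also linked to the trafficking and breakdown of other vesicles. Promoters can touch enhancers, other promoters or the body of their own gene, and such contacts can differ between tissues.

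The bait fragment spans chr1:72212134-72213185 (1052 bp) and its centre lies 353 bp from the annotated Mreg start site. Mreg is on the minus strand, chr1:72159442-72212307, so its body and 3′ end lie at lower coordinates, here called the gene-body side and given negative offsets, and the upstream side has positive offsets. The windows on which the comparison turns are shown as sequence from GRCm38.p6, in lower case, with the promoter credited to RefSeq. They are the 250 bases before the Mreg start (chr1:72212315-72212564, minus strand) and the 300 bases at the centre of the fragment with the strongest tissue difference in Mreg (chr1:72167102-72167401), Fn1 (chr1:71647282-71647581), Xrcc5 (chr1:72374270-72374569) and Igfbp2 (chr1:72839104-72839403), all on the plus strand. Capitals mark matches to the motifs described after them.
Mreg promoter: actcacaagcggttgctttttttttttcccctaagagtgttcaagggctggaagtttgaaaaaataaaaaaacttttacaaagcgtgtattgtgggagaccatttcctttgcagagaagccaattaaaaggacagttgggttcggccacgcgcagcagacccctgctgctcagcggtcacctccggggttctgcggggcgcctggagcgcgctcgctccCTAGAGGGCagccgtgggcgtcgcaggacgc
Mreg intron window: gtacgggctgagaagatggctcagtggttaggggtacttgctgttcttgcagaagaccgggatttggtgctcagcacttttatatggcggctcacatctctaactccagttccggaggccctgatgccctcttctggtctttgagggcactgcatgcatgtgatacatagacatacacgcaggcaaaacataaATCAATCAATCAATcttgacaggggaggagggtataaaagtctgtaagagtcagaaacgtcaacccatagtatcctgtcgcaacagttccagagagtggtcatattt
Fn1 intron window: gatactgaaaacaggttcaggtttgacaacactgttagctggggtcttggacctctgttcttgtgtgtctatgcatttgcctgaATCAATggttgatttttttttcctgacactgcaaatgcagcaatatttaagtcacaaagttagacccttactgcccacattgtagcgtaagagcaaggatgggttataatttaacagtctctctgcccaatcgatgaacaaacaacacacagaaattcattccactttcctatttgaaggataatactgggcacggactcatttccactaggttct
Xrcc5 intron window: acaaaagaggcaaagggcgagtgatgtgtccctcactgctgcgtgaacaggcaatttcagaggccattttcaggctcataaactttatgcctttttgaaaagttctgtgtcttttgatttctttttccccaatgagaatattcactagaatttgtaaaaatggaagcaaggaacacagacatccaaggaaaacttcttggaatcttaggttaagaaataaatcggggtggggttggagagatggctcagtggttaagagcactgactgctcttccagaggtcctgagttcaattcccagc
Igfbp2 intron window: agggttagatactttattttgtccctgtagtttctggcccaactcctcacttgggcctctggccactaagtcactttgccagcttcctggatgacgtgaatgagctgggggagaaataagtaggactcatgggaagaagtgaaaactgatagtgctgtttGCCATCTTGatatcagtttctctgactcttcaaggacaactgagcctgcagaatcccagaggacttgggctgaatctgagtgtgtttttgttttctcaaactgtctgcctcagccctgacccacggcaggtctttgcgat
The Mreg promoter held a CTCF core match (CNAGNNGGC), and so did the Igfbp2 window. The Mreg intron window held 3 overlapping ONECUT matches (ATTGAT, on the minus strand) in a short ATCA repeat, and the Fn1 window held 1. No motif searched was found in the Xrcc5 window.

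Motifs of clock and liver factors were searched on both strands in 300 bases at the top fragment of each of the 14 regions described below, and in the same windows at all 6070 fragments. The CTCF core was in 3 of the 14 windows and in 9.39% of all windows. ONECUT was in 2 of 14 and in 14.1% of all, and the forkhead motif TGTTTAC was in 1 of 14 and in 4.61% of all. The E-box CACGTG (3.62% of all windows), the ROR element TAGGTCA (3.44%), the D-box TTATGNAA (6.89%), HNF4 CAAAGTC (4.48%) and HNF1 GTTAAT (11.4%) were in 0 of 14. The 300 bases centred on the bait (chr1:72212510-72212809) held 0 matches to any of them. A match shows only that these letters are present.

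Each fragment has 1 contact signal and 1 variance per tissue, in which the libraries of that tissue were already combined by the authors. The scale of the signal is not given in the sources used here, so differences rather than ratios are reported. A fragment was called where liver and kidney differed by at least 3 standard errors, the standard error being the square root of the summed variances. This is a description of size against the deposited error and not a test between animals. Neighbouring fragments had similar differences. Those left after removing the trend with distance correlated at 0.985 across fragments 1 kb apart and at 0.316 across 50 kb. Neighbours thus do not count as separate measurements, and how far smoothing before deposit adds to this was not tested. In bulk tissue a contact made in fewer cells and a contact made less often per cell cannot be told apart, and 4C libraries hold no expression by which the tissue label could be checked.

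Liver had the higher contact at 175 fragments (2.88% of 6070) and kidney at 25 (0.412%). The calls fell on different sides of the promoter. Of the liver calls, 168 lay on the gene-body side and 7 on the upstream side, whereas 0 of the kidney calls lay on the gene-body side and 25 on the upstream side. The split was less sharp at 2 standard errors, where liver was higher at 397 fragments on the gene-body side and 130 upstream, and kidney at 154 and 280. Over all fragments the tissues were nearly balanced, with a median difference of -0.0034 and 44.9% of fragments higher in liver, against 87.5% of the called ones. The called fragment nearest the threshold differed by 3.01 standard errors, and a further 352 fragments in liver and 409 in kidney were between 2 and 3.

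**Figure D1:**
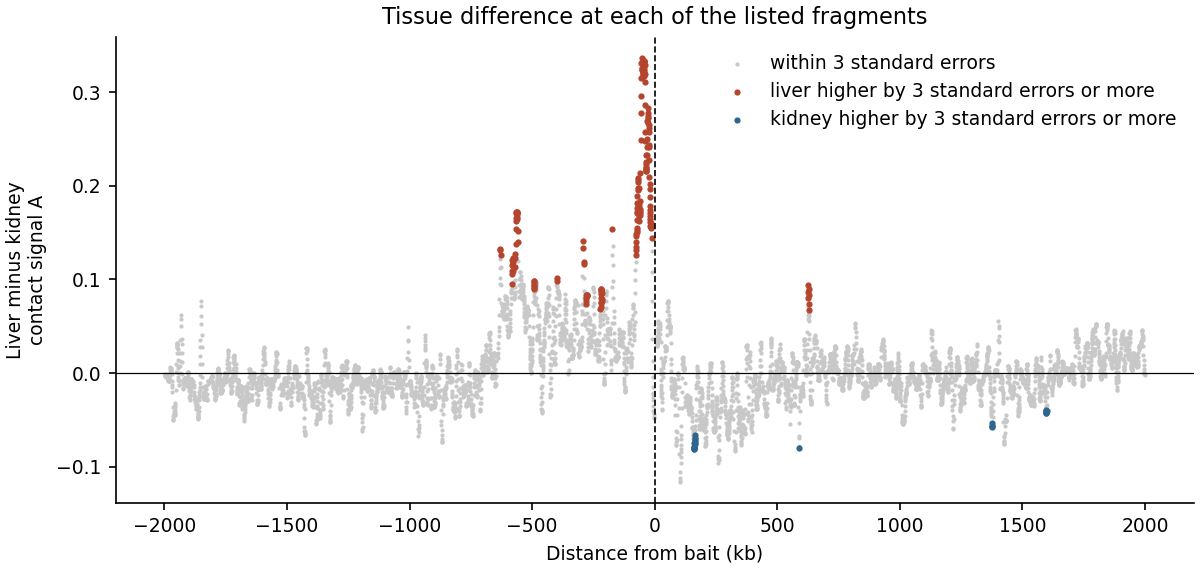
Liver minus kidney contact signal (y axis, scale of the deposited table) at each of the 6070 fragments against the distance from the bait in kb (x axis, gene-body side negative). Red points are the 175 fragments higher in liver and blue points the 25 higher in kidney by at least 3 standard errors; the highest red points lie just left of the bait and all blue points lie to its right.

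The called fragments formed 14 regions, 10 with more contact in liver and 4 with more in kidney. Of the liver regions, 9 lay on the gene-body side. The count of kidney calls was the less firm: it was 14 where low variances were raised to the median, 5 at a threshold of 4 standard errors and 0 where a difference of at least 0.1 was also asked, against 175, 100 and 138 in liver. At 4 standard errors 3 regions were left, over Mreg (offsets -72.6 to -14.2 kb), Fn1 (-567.5 to -558.7 kb) and Xrcc5 (160.8 to 162.9 kb).

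The largest region covered most of Mreg itself. It ran from chr1:72134763 to chr1:72200281 (65.5 kb, offsets -77.4 to -12.5 kb), and all 102 listed fragments in it were called, with a mean signal of 0.508 in liver and 0.279 in kidney. The strongest single fragment in standard errors, chr1:72166872-72167632, lay 45.4 kb from the bait in an intron of Mreg. Its signal was 0.551 ± 0.0257 (standard error) in liver and 0.234 ± 0.0257 in kidney, a difference of 0.317 ± 0.0363 or 8.74 standard errors. The largest difference in size, 0.337 ± 0.0474, was at the fragment chr1:72158357-72159919, 53.5 kb from the bait, which holds the 3′ end of Mreg in its last exon and untranslated region; the signal there was 0.516 in liver and 0.179 in kidney.

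The liver excess was absent next to the promoter and grew along the gene. Within 10 kb of the bait, kidney was at 0.794 and liver at 0.772 on average over 13 fragments, and 0 were called. From 10 to 20 kb the means were 0.636 in liver and 0.484 in kidney, and from 20 to 30 kb they were 0.649 and 0.403. The gap was widest from 40 to 50 kb, at 0.567 in liver against 0.241 in kidney, where all 17 fragments were called. From the bait to that distance kidney contact thus dropped much further than liver contact did.

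In all, 65 of the 81 fragments in Mreg were called, and the mean over the gene was 0.201 higher in liver. The 31 fragments in the first 20 kb averaged 0.692 in liver and 0.612 in kidney, with 15 called. The other 50 averaged 0.581 and 0.306, and all 50 were called, with differences from 0.196 to 0.334. The 5 fragments that hold an exon averaged 0.552 in liver and 0.280 in kidney, and the 76 intron fragments 0.628 and 0.433. These sets were not matched for distance and neighbouring fragments are correlated, so exons and introns cannot be told apart here.

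The calls went on past the end of the gene and then stopped, while smaller differences of the same sign continued. The 3′ end of Mreg lies 53.2 kb from the bait, and the region reached 24.7 kb beyond it. In the first 25 kb beyond the 3′ end the mean was 0.363 in liver and 0.172 in kidney, with 37 of 38 fragments called. In the next 25 kb it was 0.122 and 0.0740, with 0 of 34 called, though each of the 34 was higher in liver. Fragments in a row were higher in liver out to an offset of -117.5 kb. Of the 10 kb steps within 100 kb on this side, both tissues were lowest from 80 to 90 kb, at 0.110 in liver and 0.0497 in kidney.

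**Figure D2:**
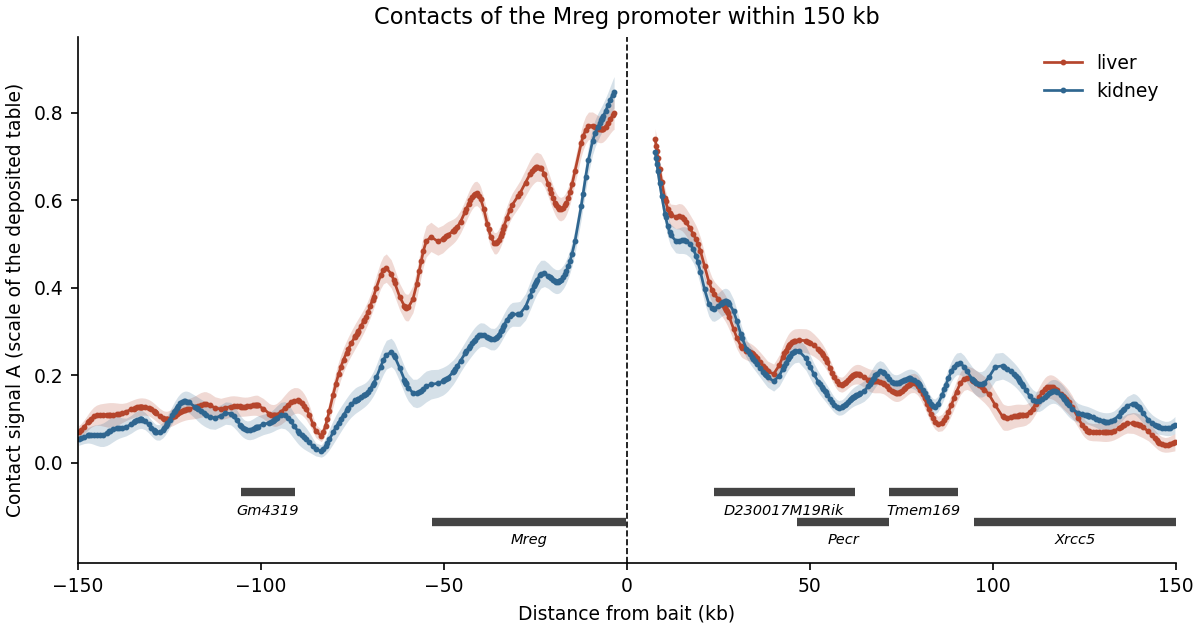
Contact signal (y axis) in liver (red) and kidney (blue) at fragments within 150 kb of the bait (x axis, kb), with bands of 1 standard error either way and bars for annotated genes. Liver lies above kidney between offsets of -77.4 and -12.5 kb, over Mreg and beyond its 3′ end, while on the upstream side 0 fragments within 100 kb were called.

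The mirrored stretch upstream of the promoter served as the comparison at equal distance. There the first 20 kb averaged 0.598 in liver and 0.559 in kidney over 20 fragments, and the stretch matching the rest of Mreg 0.294 and 0.279 over 50 fragments, with 0 called in either. Between 20 and 50 kb, liver had a median of 0.589 on the gene-body side and 0.277 on the upstream side, a gap of 0.313, whereas kidney had 0.293 and 0.255, a gap of 0.0374. Liver contacts were thus skewed towards the gene body at this distance, by more than those of kidney. Between 50 and 100 kb the gap was 0.107 in liver, and in kidney it was -0.0381, the upstream side being higher.

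Farther out the sign of the difference depended on the side. On the gene-body side, liver was higher at 92.1% of 152 fragments from 100 to 200 kb (medians 0.122 and 0.0816) and at 94.2% of 481 fragments from 200 to 500 kb (0.120 and 0.0721). On the upstream side, liver was higher at 13.2% of 152 fragments and 14.5% of 477 fragments at the same distances, with medians of 0.0766 in liver and 0.112 in kidney, then 0.0441 and 0.0788. The median differences were 0.0326 and 0.0416 on the gene-body side and -0.0366 and -0.0328 on the upstream side. Each was somewhat larger in size than the median standard error of 1 fragment in its band, from 0.0245 to 0.0320, and below the 3 standard errors of a call. Called fragments in these bands numbered 1 and 34 on the gene-body side and 13 and 0 on the upstream side. Beyond 1000 kb on the gene-body side kidney had the higher median, 0.0278 against 0.0149, and liver was higher at 18.8% of 1444 fragments, with 0 called. The median difference there, -0.0108, was smaller in size than the median standard error of 1 fragment, 0.0172. It was -0.0059 with differences centred on fragments beyond 500 kb.

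**Figure D3:**
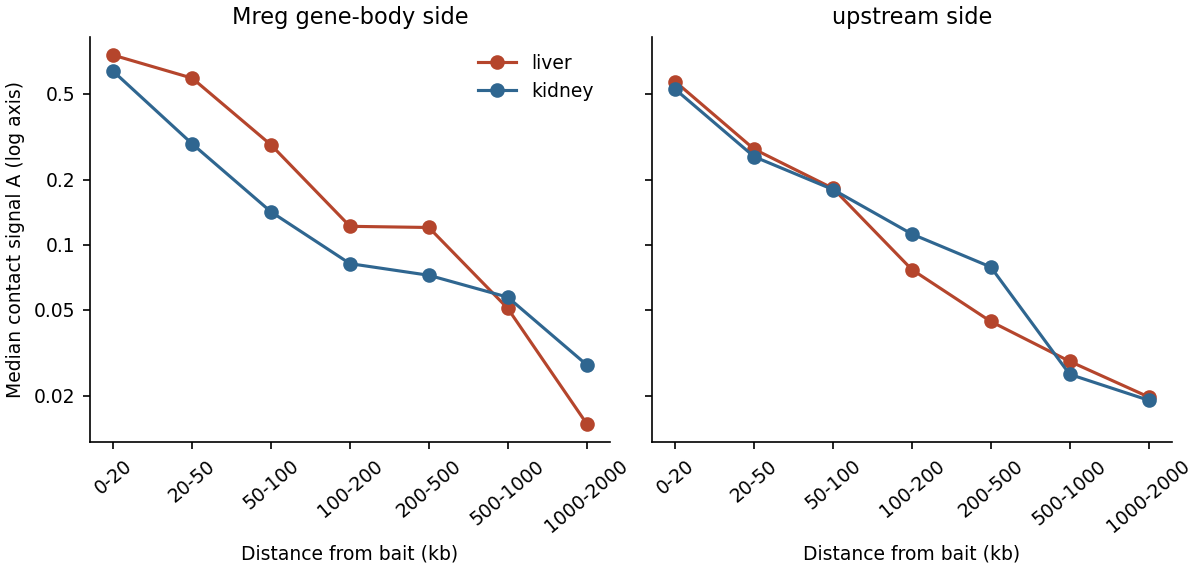
Median contact signal (y axis, log axis) in liver (red) and kidney (blue) by distance band in kb (x axis) on the gene-body side (left panel) and the upstream side (right panel). Liver lies above kidney on the gene-body side out to 500 kb and below it on the upstream side from 100 to 500 kb.

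The second largest region lay over Fn1, the gene of fibronectin, an extracellular matrix protein that liver cells also secrete into plasma. It spanned chr1:71628835-71655469 (26.6 kb, offsets -583.4 to -557.6 kb), and 28 of 38 listed fragments were called, with means of 0.207 in liver and 0.0806 in kidney. The top fragment, chr1:71647112-71647751, lay in an Fn1 intron 565.2 kb from the bait, at 0.243 ± 0.0246 in liver and 0.0772 ± 0.0250 in kidney, a difference of 4.74 standard errors. The region took in the Fn1 start site, where the nearest fragment was at 0.213 in liver and 0.0606 in kidney (4.03 standard errors), and that of Apol7d, an antisense gene in this annotation that overlaps it, at 0.220 and 0.0550 (4.43 standard errors). Over the whole of Fn1, 26 of 102 fragments were called and the mean difference was 0.0853.

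The signal at Fn1 belonged to a longer stretch higher in liver. From -646.2 to -507.1 kb all 205 fragments in a row had the higher value in liver, and this stretch also held a small region between Atic and Fn1 (chr1:71583028-71584997), at 0.188 in liver and 0.0581 in kidney over 3 fragments. At Atic, a purine synthesis gene on the far side, the tissues met: a fragment in its intron 649.2 kb from the bait was the strongest peak above the distance trend in kidney, at 0.145 ± 0.0325, and liver was at 0.133 ± 0.0321 there.

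Between Fn1 and Mreg lay 6 smaller liver regions, in a stretch with no protein-coding gene annotated. At -494.2 to -491.2 kb, 7 fragments averaged 0.145 in liver and 0.0504 in kidney, 5.1 kb from the pseudogene Gm5256. At -400.2 to -398.9 kb, 2 fragments averaged 0.164 and 0.0633, 29.9 kb from the annotated transcript Gm37217. A pair of regions lay between the noncoding genes Gm28818 and 4933417E11Rik, with means of 0.191 and 0.0631 over 4 fragments around -291.7 kb and of 0.116 and 0.0357 over 7 fragments around -278.7 kb.

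The other regions of this stretch lay in or near long noncoding RNA genes. The region chr1:71991428-71998024 lay within both 4933417E11Rik and 4930556G22Rik, with its top fragment in an intron of each. All 14 of its fragments were called, at 0.133 in liver and 0.0517 in kidney. A single long fragment, chr1:72039083-72041440, lay just upstream of the start of 4930556G22Rik (chr1:72038731, minus strand). Its midpoint was 1.5 kb from that start and 172.4 kb from the bait. Its signal was 0.213 in liver and 0.0593 in kidney (3.25 standard errors). The listed fragment nearest to that start site was at 0.184 in liver and 0.0574 in kidney, 2.78 standard errors and so not called.

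The kidney regions all lay upstream. The largest lay within Xrcc5, which encodes a Ku subunit of DNA break repair, at chr1:72371172-72377927 (offsets 158.9 to 164.8 kb). All 13 of its fragments were called, with means of 0.0375 in liver and 0.113 in kidney. Its top fragment, in an intron, was at 0.0346 ± 0.0135 in liver and 0.115 ± 0.0134 in kidney, -4.22 standard errors. A larger difference in size than at that top fragment was at an exon-bearing fragment of Xrcc5 102.6 kb from the bait. This was a kidney peak above the distance trend, at 0.106 ± 0.0298 in liver and 0.222 ± 0.0305 in kidney. That difference of -0.116 (-2.72 standard errors) was not called. Over all 128 fragments of Xrcc5, liver was lower by 0.0373 on average.

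The other kidney regions held few fragments at low signal. A single fragment 589.2 kb upstream, 22.6 kb from Igfbp2, was at 0.0192 in liver and 0.0997 in kidney (-3.06 standard errors). Around 1376.7 kb, 4 fragments 28.7 kb from 6030407O03Rik averaged 0.0054 in liver and 0.0615 in kidney. Around 1598.2 kb, 7 fragments within the noncoding genes 6030407O03Rik and Gm29183 averaged 0.0073 and 0.0487. Liver contact was close to the bottom of the scale at the last pair of regions.

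One liver region lay on the upstream side, within Igfbp2, which encodes a binding protein of insulin-like growth factors. It spanned chr1:72837552-72842258, and its 7 fragments averaged 0.129 in liver and 0.0468 in kidney. The top fragment, in an intron 626.6 kb from the bait, was at 0.145 ± 0.0176 in liver and 0.0514 ± 0.0173 in kidney (3.81 standard errors). At the 3′ end of the same gene, 639.8 kb from the bait, kidney had a peak above the distance trend, at 0.110, with liver at 0.0919. Liver was also above its own trend there, by 0.0463 against 0.0586 in kidney. Over Igfbp5, the neighbouring gene of the same family, 0 of 21 fragments were called.

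**Figure D4:**
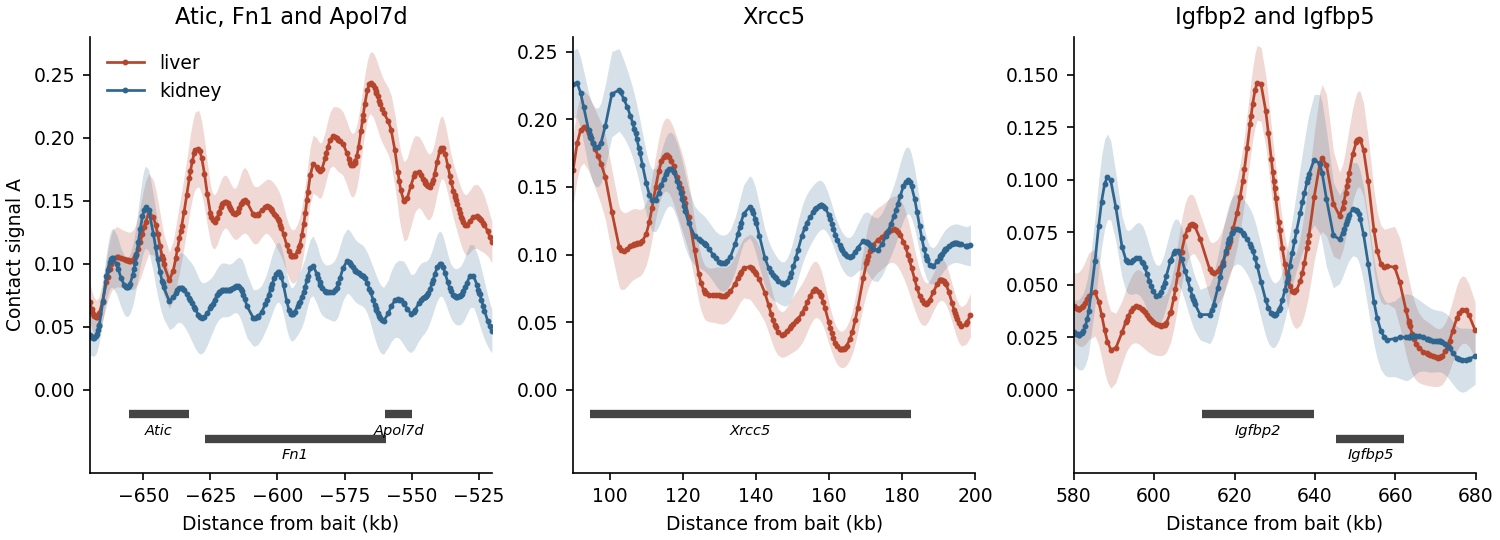
Contact signal (y axis; the scale differs between panels) in liver (red) and kidney (blue), with bands of 1 standard error either way, against distance from the bait in kb (x axis) around Fn1, Xrcc5 and Igfbp2, with bars for genes. Liver rises to 0.243 in Fn1 and 0.145 in Igfbp2 where kidney is at 0.0772 and 0.0514, and kidney lies above liver in the middle of Xrcc5.

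Of the other genes with a start site within 200 kb of the bait, none was called at the fragment nearest its start. The Mreg start lies inside the bait fragment, so contact with it has no value. The listed fragment nearest to it, 3132 bp away, was at 0.798 in liver and 0.846 in kidney and was not called. Pecr, which encodes a peroxisomal enoyl-CoA reductase, and Tmem169, a membrane protein gene, start next to each other in opposite directions 71.7 kb upstream, and the fragment nearest to both was at 0.169 in liver and 0.191 in kidney. The Xrcc5 start site, 94.8 kb upstream, was at 0.187 in liver and 0.188 in kidney. The start of the noncoding gene D230017M19Rik was at 0.385 and 0.352, and those of the small nuclear RNA genes Gm25360, Gm23472, Gm24497 and Gm25939 were 0.562 and 0.507, 0.385 and 0.352, 0.263 and 0.284, and 0.243 and 0.215 in liver and kidney. On the gene-body side, Gm4319 was at 0.142 and 0.0843 and the pseudogene Gm8885 at 0.101 and 0.0988.

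Of the 19 protein-coding start sites more than 10 kb from the bait and within the table, 1 was called, that of Fn1 in liver. Of all 6070 fragments, 2.88% were called in liver and 0.412% in kidney. So few start sites cannot show whether they differ from other fragments. March4, a ubiquitin ligase gene, came closest in the other direction, with 0.0191 in liver and 0.0914 in kidney at its start (-2.40 standard errors). The 33 genes with at least 10 fragments were divided, 17 with the higher mean in liver and 16 in kidney. The 3 with the largest mean difference were Mreg (0.201), Apol7d (0.105) and Fn1 (0.0853). March4 and Xrcc5 were the lowest, both at -0.037, and Pecr was at 0.0381 with 0 of 45 fragments called.

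**Figure D5:**
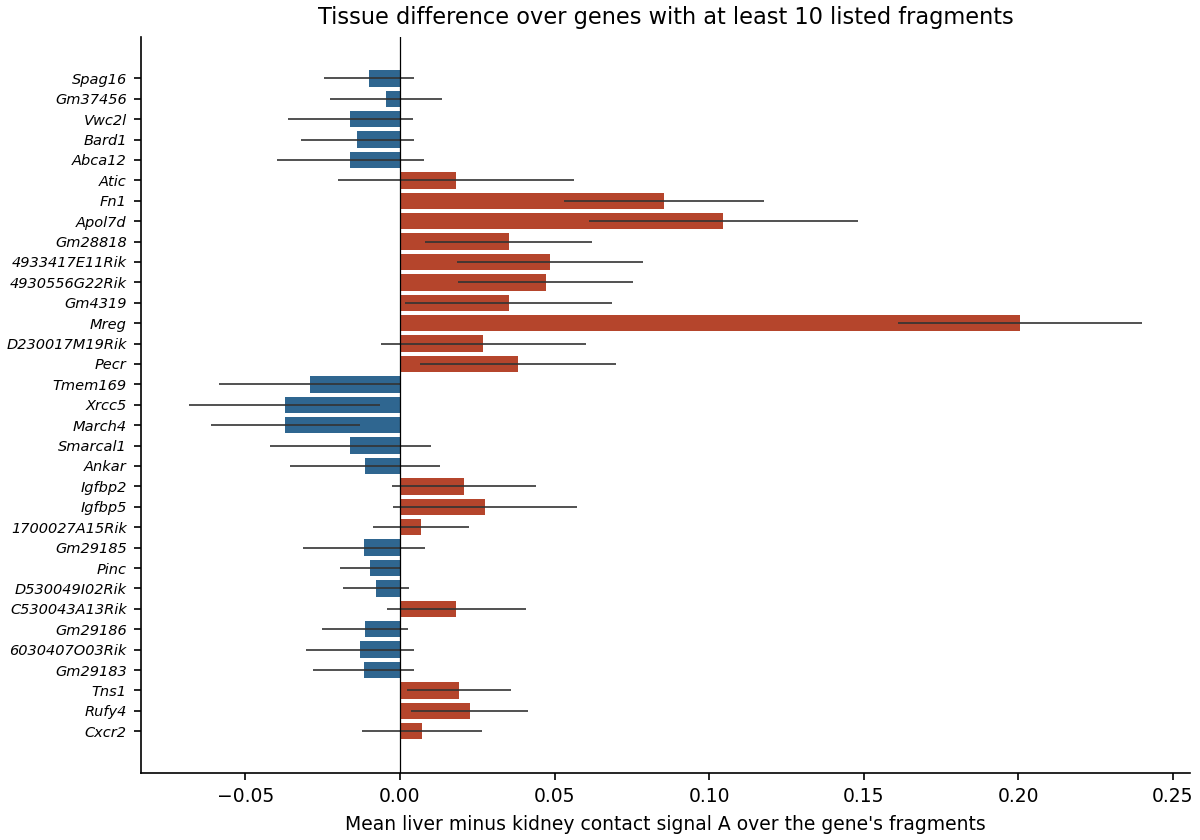
Mean liver minus kidney contact signal (x axis) over the fragments of each of 33 genes with at least 10 fragments, in order along the chromosome (y axis). Error bars are the median standard error of a single fragment's difference in that gene; Mreg reaches 0.201, and the genes from Fn1 to Pecr are higher in liver while those from Tmem169 to Ankar are higher in kidney.

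Peaks above the fall with distance were also taken in each tissue by itself, the 5 highest at least 50 kb from the bait and 100 kb apart. In liver they were at the 3′ end of Mreg (0.291 above the trend), Fn1 (0.191), the intergenic fragments at -293.4 kb (0.139) and -172.4 kb (0.111), and -433.0 kb (0.108). At the same fragments kidney lay between -0.0481 and 0.0205 of its own trend. In kidney the peaks were lower, at Atic (0.0947), Xrcc5 (0.0683), 1.1 kb from Bard1 at -1108.4 kb (0.0632), Abca12 (0.0587) and the 3′ end of Igfbp2 (0.0586). Liver was above its trend at 4 of these 5, by 0.0357 to 0.0886, and below it at the Xrcc5 peak, by -0.0389. Across 5925 fragments at least 50 kb from the bait, the signals above trend had a Spearman rho of 0.249 between tissues. It is given as a description, since neighbouring fragments do not count as separate measurements.

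The called fragments were like the rest in length, base composition and spacing, but not in error or in the share within genes. The median standard error of the difference was 0.0379 at fragments higher in liver, 0.0189 at those higher in kidney and 0.0210 over all. Fragments higher in liver had a median length of 434 bp, those higher in kidney 450 bp and all fragments 439.5 bp. Median GC content was 44.3%, 42.6% and 42.5%, and the median number of listed fragments within 10 kb was 31, 33 and 31. The median repeat-masked share was 22.4%, 18.1% and 18.4%, in the same order. Within a gene lay 65.1%, 80% and 56.0% of fragments. The called fragments sit in 14 regions, so these shares rest on few places. The table listed 61.3% of the GATC fragments in its span, and an inner CATG site was present in 98.7% of listed and 7.85% of unlisted fragments. The listed fragments closest to the bait have their midpoints 3.49 kb away on the gene-body side and 7.73 kb away upstream, so the table gives no value nearer to the promoter.

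The other baits of the study were treated in the same way as a measure of how common such differences are. Liver was higher at 3.53% of fragments for Pi3kap1 (sampled at ZT8), 1.72% for Slc44a1, 0.593% for Slc45a3long and 1.23% for Slc45a3short, and kidney at 2.09%, 1.91%, 0.214% and 1.04%. The share of Mreg fragments higher in liver thus lay within the range of the other baits, and so did the kidney share. Liver calls were 87.5% of all calls for Mreg and 47.4% to 73.5% for the others, and whether Mreg differs from them was not tested. Uneven splits by side were also seen at other baits. On the lower and the higher coordinate side of the bait, liver calls numbered 94 and 8 for Slc44a1, 56 and 19 for Slc45a3short, 113 and 96 for Pi3kap1 and 18 and 18 for Slc45a3long. Kidney calls numbered 69 and 44, 5 and 58, 51 and 73, and 0 and 13 in the same order. The longest Mreg region, of 102 fragments, compares with 15 to 84 fragments for the longest region of another bait. At each of these baits, as at Mreg, the fragment strongest in standard errors was higher in liver, on the lower coordinate side. It lay at -37.8 kb for Pi3kap1 (9.69 standard errors) and at -23.4 kb for Slc44a1 (7.22). For Slc45a3long it lay at -19.6 kb (4.13) and for Slc45a3short at -31.4 kb (7.11). That of Mreg was at -45.4 kb (8.74), so a strong liver excess near the bait was not particular to Mreg.

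Kidney RNA gives the level of the same genes in 1 of the tissues, in 129SV mice under night-restricted feeding. Mreg was low, at 1.61 and 2.02 TPM, a measure per transcript length, in the wild-type libraries of ZT20, and from 1.11 to 2.42 TPM, with a median of 1.44, over 12 wild-type libraries. Of the genes in regions higher in liver, Fn1 was at 10.3 and 11.6 TPM and Igfbp2 at 2.79 and 4.59 TPM at ZT20. Xrcc5, over the largest kidney region, was at 16.1 and 17.5 TPM. Pecr, 71.7 kb upstream and with no called fragment, was the most abundant gene of the locus in kidney, at 308 and 348 TPM. Of 31 genes of the locus matched in the RNA table, 12 had a mean of at least 1 TPM. Liver RNA was not analysed here, so contact and expression were not compared between tissues.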

How the data were processed

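Contact signals were deposited by the authors per tissue and fragment, as a score on a scale not given in the sources used here, each with a variance, per the file headers. Values of the 2 libraries per tissue were already combined, so spread between animals cannot be had, nor read depth. Aligner and smoothing are not given in the sources used here. The labels list mm9 for 4C, but all 6070 offsets fell on GATC fragment midpoints of GRCm38 chromosome 1 at 1 place, the bait, which set the coordinates. RNA values are TPM per transcript deposited by the authors, with kallisto 0.42.4 per the submitters' processing notes; transcripts were summed to genes through GENCODE M21, by identifier without version. TPM keeps no depth.

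Differences were liver minus kidney, called at 3 standard errors; called fragments of the same sign no more than 10 kb apart made a region. The trend with distance was a lowess fit (fraction 0.3) of the signal. Distances from a region or fragment to a gene were taken from the midpoint of the region or fragment. The deposited Z-scores and p-values were not used. Named were Mreg, genes at or next to called regions, start sites within 200 kb, the 3 genes with the largest mean difference over at least 10 fragments, and genes at peaks. The bait, the motifs and the thresholds were chosen with earlier results of these data known. The calling code was run on simulated profiles whose noise was drawn from the deposited variances. This checks the code and cannot show whether those variances are the right error. Python 3.11.15, numpy 2.4.6, pandas 2.3.3 and statsmodels 0.14.6 were used. Alternatives covered the threshold, centring, gaps, distance, size of difference, variance floor, thinning, medians and the trend fit.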

Additional observations from a re-analysis of the deposited data

How the results depend on the processing

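Counts are given in the order fragments higher in liver, fragments higher in kidney, liver regions, kidney regions, and were 175, 25, 10 and 4 as reported. They were 527, 434, 25 and 42 at 2 standard errors and 100, 5, 2 and 1 at 4. With a difference of at least 0.1 also asked they were 138, 0, 6 and 0. Centring the differences on their median at fragments beyond 500 kb gave 215, 16, 16 and 2. Raising variances to their median, chosen after seeing the data, gave 175, 14, 10 and 2. Centring on all fragments, leaving out 20 kb around the bait, and other gaps kept each count within 1.5 times. Of 5 peaks per tissue, 3 in liver and 3 in kidney were found again with the trend fitted on each side apart. The difference at the fragment strongest in standard errors (0.317) moved by less than its own standard error. The 28 alternative values by distance and the 33 by gene moved less than the median standard error of 1 fragment in that band or gene. This is a wide limit, since beyond 500 kb every band difference was itself below it. With centring beyond 500 kb, the median difference from 500 to 1000 kb on the gene-body side changed sign, from -0.00028 to 0.0046. No paired analysis was possible because the values of libraries EF and GH were combined per tissue, and for the same reason leaving out each library was not run. The deposited variance is the error behind every call, and what it covers is not given in the sources used here; no read depth was given, so counting error is unknown.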
